A study of Mus musculus with 7 samples.

Results

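The genes described here make, sense and export sterols and make fatty acids: 17 genes of sterol synthesis, 5 of Srebp regulation, 3 of sterol transport and efflux and 9 of fatty acid synthesis. They were taken by symbol from a gene expression table of whole mouse uterus, where all 34 listed symbols were found among 31274 rows. The genes were chosen by pathway with the FPKM differences between these estrus and diestrus libraries already known. The values and calls below therefore describe these genes and give no independent support for a change of the pathway. RNA sequencing had been done on uteri of unexposed control CD-1 mice, an outbred stock, at 2 months of age. The estrus group held 3 libraries and the diestrus group 4, and the labels name no other genotype or agent for either. Estrus follows the estradiol peak of the ovarian cycle, and in diestrus progesterone from the corpora lutea prevails. Nothing in the labels ties each library to its own animal, so p-values refer to the variation among these libraries alone, and this may be technical.

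Cells build cholesterol from acetyl-CoA through mevalonate, farnesyl pyrophosphate, squalene and lanosterol. The transcription factor Srebp2, encoded by Srebf2, switches on nearly every enzyme of this route when sterols in the endoplasmic reticulum run low, whereas Srebp1, encoded by Srebf1, acts more on fatty acid genes. Scap carries both precursors to the Golgi for cleavage and Insig proteins hold them back when sterols are plentiful. The liver X receptors (Lxr) respond to oxysterols, which form when sterols are abundant, and induce the exporters Abca1 and Abcg1. In the uterus, estradiol drives growth of the luminal and glandular epithelium, which needs membrane lipid.

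Levels are FPKM, fragments scaled to transcript length and to the mapped fragments of a library, as deposited. FPKM holds no read number. Relative depth was taken from genes detected under 0.3 FPKM in both a library and estrus replicate 1. The inverse of their most frequent FPKM ratio gave relative depths of 0.92 to 1.36 times that of estrus replicate 1. The 13920 genes that reached 1 FPKM in 3 or more libraries were tested, and all 34 listed genes were among them. "Higher" and "lower" calls rest on limma with a Benjamini-Hochberg adjusted p under 0.05, and log2 fold changes are estrus minus diestrus of log2(FPKM + 1), which understates changes of genes near 0. The calls were 17.2% of tested genes higher and 14% lower in estrus, 31.1% in all. On the first principal component of all tested genes, which held 60.2% of the variance, estrus libraries lay at -59.9 to -47.0 and diestrus libraries at 11.3 to 61.9, with diestrus replicate 1 nearest to estrus. Uterine tissue markers were present in all 7 libraries, and 9 markers of ovary and oviduct summed to 1.68 to 3.16 FPKM in estrus and 10.1 to 54.6 FPKM in diestrus. Of these, Ovgp1, the oviductal glycoprotein, stood at 0.91 to 2.53 FPKM in estrus and 8.68 to 53.2 FPKM in diestrus and Inha at 0.52 to 0.64 FPKM in estrus and 1.11 to 1.59 FPKM in diestrus, and both, the only ones tested, fell (adjusted p = 0.0120 and 0.0234). The call of Ovgp1 was lost without estrus replicate 2 (0.0568), and that of Inha without any estrus library or diestrus replicate 3 or 4 (0.0502 to 0.0886) and with quantile normalization (0.0769). Cyp11a1 reached 0.04 FPKM in estrus and 0.26 FPKM in diestrus, Cyp17a1, Cyp19a1, Lhcgr, Amh and Hsd3b1 were at most 0.11 FPKM in any library, and Fshr was listed at 0 in all. The part of attached ovary or oviduct in the results below was not tested.

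Sterol synthesis transcripts were more abundant in estrus along nearly the whole route. Of 17 genes, 14 rose, none fell and 3 did not pass, beside a background of 17.2% of tested genes called higher. All 17 had a positive log2 fold change, from 0.25 to 2.69 with a median of 1.47, against a median of 0.05 over all tested genes. In 14 of the 17 every estrus library lay above every diestrus library, as it did for 21.9% of tested genes. Their summed level was 523.9, 656.0 and 363.8 FPKM in estrus replicates 1 to 3, against 192.5, 169.9, 186.7 and 145.8 FPKM in diestrus replicates 1 to 4.

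**Figure D1:**
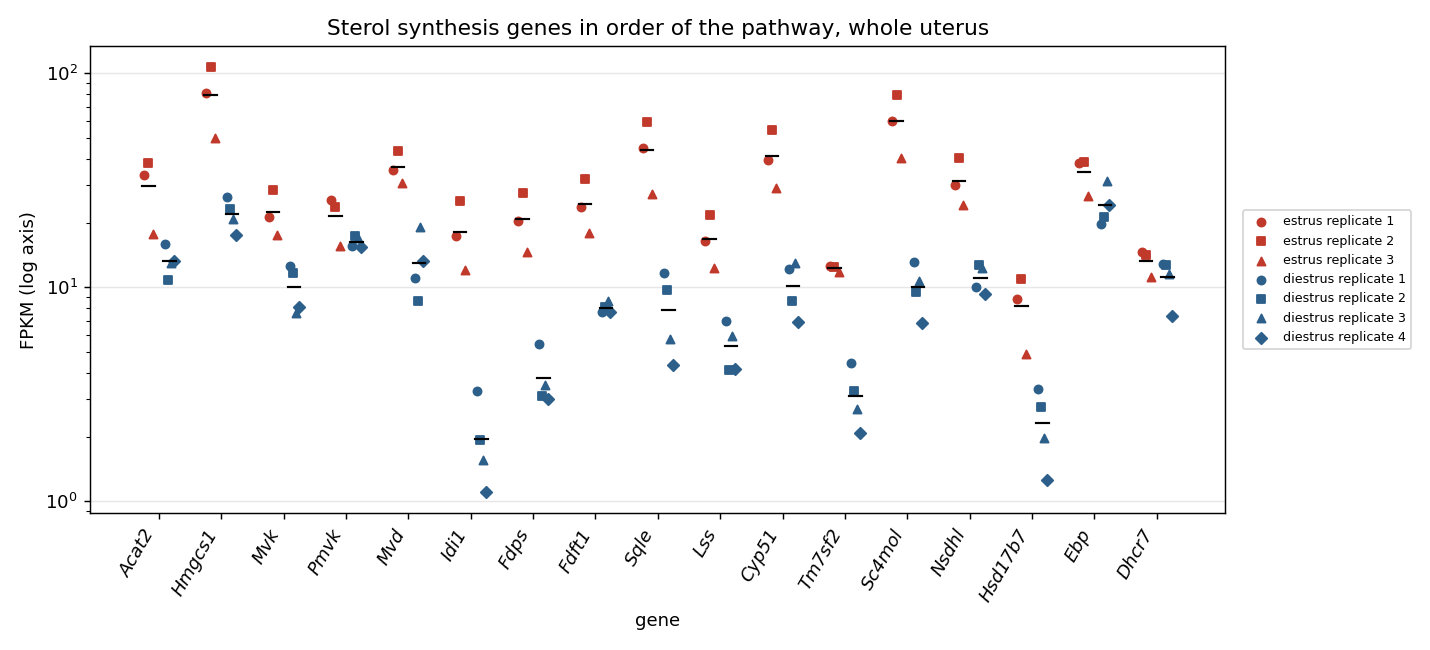
FPKM on a log axis of the 17 sterol synthesis genes, placed in order of the pathway; red symbols are the 3 estrus and blue symbols the 4 diestrus libraries, with a shape for each replicate, and black bars are group means. For 14 genes the red symbols lie above all blue symbols, and Pmvk, Ebp and Dhcr7 overlap.

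The early, mevalonate part of the route begins with acetoacetyl-CoA. Acat2, the cytosolic thiolase that forms it, stood at 33.3, 38.0 and 17.8 FPKM in estrus and at 16.0, 10.9, 13.0 and 13.3 FPKM in diestrus. The groups did not overlap and the gene rose by 1.05 (SE 0.26, adjusted p = 0.0213). Its adjusted p was 0.0724, 0.0900 and 0.0501 without estrus replicate 1, estrus replicate 2 and diestrus replicate 4, and the near-identical Acat3 shares 97.7% of bases over 65.6% of its transcript, so the split of reads between them is uncertain. Hmgcs1, the HMG-CoA synthase (GRCm38 chromosome 13, 119690379 to 119708260, protein-coding), had the highest estrus mean of the 17. It stood at 81.4, 107 and 49.7 FPKM in estrus, against 26.5, 23.3, 21.0 and 17.6 FPKM in diestrus, and rose by 1.75 (SE 0.26, adjusted p = 0.00394). The lowest estrus library, at 49.7 FPKM, was well above the highest diestrus library.

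Mevalonate kinase, Mvk, averaged 22.5 ± 5.58 FPKM in estrus and 10.00 ± 2.53 FPKM in diestrus (SD, n = 3 and n = 4). It rose by 1.10 with an adjusted p of 0.0119, which was 0.0568 without estrus replicate 2. Pmvk, phosphomevalonate kinase, averaged 21.6 ± 5.35 FPKM in estrus and 16.3 ± 0.97 FPKM in diestrus. Estrus replicate 3, at 15.5 FPKM, lay within the diestrus range of 15.4 to 17.3 FPKM, and Pmvk did not pass (adjusted p = 0.152, but 0.0242 without that library). Mvd, the decarboxylase that makes isopentenyl pyrophosphate, rose by 1.46 (SE 0.25, adjusted p = 0.00630), with 30.6 to 43.2 FPKM in estrus and 8.60 to 19.1 FPKM in diestrus.

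The steps from isopentenyl pyrophosphate to squalene epoxide included the steepest changes. Idi1, the isomerase that makes dimethylallyl pyrophosphate (GRCm38 chromosome 13, 8885501 to 8892451, protein-coding), stood at 17.4, 25.3 and 12.1 FPKM in estrus, against 3.26, 1.94, 1.57 and 1.10 FPKM in diestrus. Its log2 fold change of 2.69 (SE 0.30, adjusted p = 0.00181) was the highest of the 34 genes, and its mean level in estrus was 9.27 times that in diestrus. The lowest estrus library, at 12.1 FPKM, lay far above the highest diestrus library, at 3.26 FPKM. Fdps, farnesyl pyrophosphate synthase, stood at 20.5, 27.5 and 14.6 FPKM in estrus and at 5.42, 3.11, 3.49 and 3.01 FPKM in diestrus (log2 2.19, SE 0.25). Sqle, squalene epoxidase and a rate-setting step of the later route, stood at 45.0, 59.2 and 27.3 FPKM in estrus and at 11.6, 9.70, 5.73 and 4.34 FPKM in diestrus (log2 2.36, SE 0.36). Neither gene overlapped between the groups. Fdft1, squalene synthase, averaged 24.6 ± 7.02 FPKM in estrus and 8.01 ± 0.48 FPKM in diestrus. Copies and overlaps limit some of these values. Fdps has 4 processed pseudogenes that match 43.8% to 77.1% of its transcript at 96.1% to 98.9% identity. It also shares 1124 exon bases, 26.7% of its exons, with Gm43738 on the same strand. Idi1 has a pair of processed pseudogenes that match 22.5% and 22.6% of its transcript. For Fdft1 the processed pseudogene Gm6781 matches 33.8% of the transcript at 97.4% identity, and 774 exon bases lie opposite exons of Ctsb.

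From lanosterol onward the rise was uneven. Lss, lanosterol synthase, rose by 1.50 and Cyp51, lanosterol 14-alpha-demethylase, by 1.91. Sc4mol, the methylsterol monooxygenase now called Msmo1 (GRCm38 chromosome 8, 64718139 to 64733792, protein-coding), stood at 59.9, 79.1 and 40.2 FPKM in estrus and at 13.1, 9.56, 10.7 and 6.80 FPKM in diestrus, and rose by 2.44 (SE 0.27, adjusted p = 0.00173). Tm7sf2, a sterol C14 reductase, was the most even in estrus at 12.6, 12.4 and 11.8 FPKM, against 4.42, 3.27, 2.70 and 2.08 FPKM in diestrus. Nsdhl and Hsd17b7, which with Sc4mol take part in C4 demethylation, rose by 1.40 and 1.45. The adjusted p of Hsd17b7 was 0.0124, and 0.0598 without estrus replicate 2. Ebp and Dhcr7, late in the route, differed by only 0.49 and 0.25, as the early Pmvk did by 0.36. Ebp, the sterol isomerase, averaged 34.5 ± 6.73 FPKM in estrus and 24.2 ± 5.15 FPKM in diestrus. Dhcr7, the last reductase of the Kandutsch-Russell branch, averaged 13.3 ± 1.88 FPKM in estrus and 11.2 ± 2.58 FPKM in diestrus. Both Ebp and Dhcr7 overlapped between the groups and did not pass (adjusted p = 0.0905 and 0.365), though Ebp was at 0.0480 without diestrus replicate 3.

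**Figure D2:**
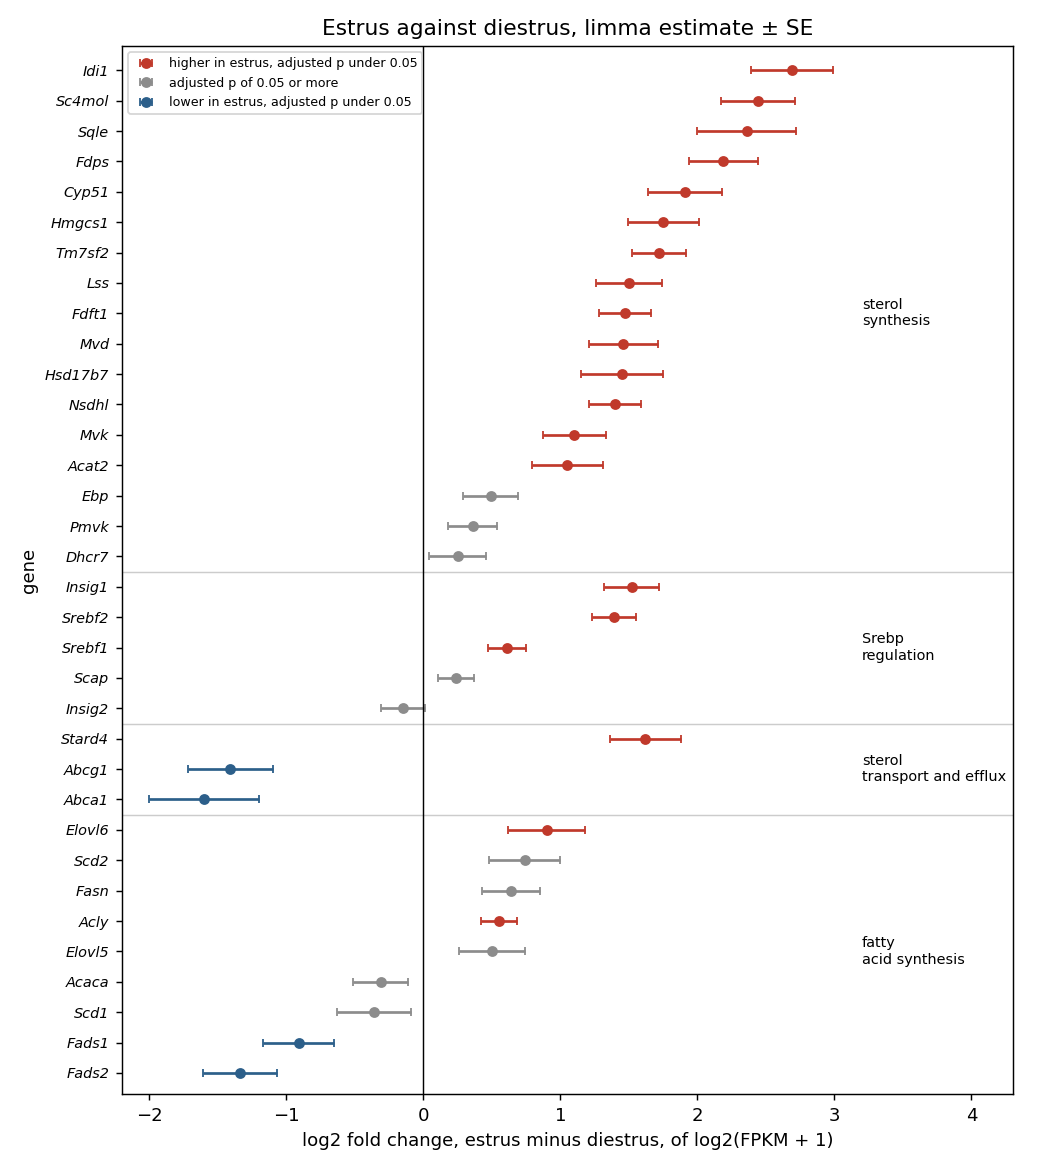
Log2 fold changes (estrus minus diestrus, log2(FPKM + 1) scale, limma estimate with SE bars) of all 34 genes, sorted within each arm. Red points are higher and blue points lower in estrus at an adjusted p under 0.05, and grey points did not pass; sterol synthesis runs from 0.25 to 2.69, while the fatty acid arm spans both signs.

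Within the groups the sterol genes kept much the same order of libraries. Estrus replicate 3 was the lowest estrus library for 17 of 17 genes and estrus replicate 2 the highest for 14, against 37.7% and 19.1% of all tested genes. Among diestrus libraries, replicate 1 was the highest and replicate 4 the lowest for 11 genes each, against 30.6% and 24.3% of all tested genes. Relative depth was 1.21 in estrus replicate 2, 0.92 in estrus replicate 3, 1.15 in diestrus replicate 1 and 1.23 in diestrus replicate 4, and its part in these orders was not tested.

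Most epithelial markers were higher in estrus too. Of the 12 markers of luminal and glandular epithelium, 8 were called higher and 0 lower. A positive log2 fold change was found for 10 of the 12, over a range of -0.57 to 3.13. For each marker count here, the background is 17.2% of tested genes called higher and 14% lower. The summed level of the 12 epithelium markers was 3232 to 3731 FPKM in estrus and 1017 to 1417 FPKM in diestrus. The group means differed 2.91-fold, close to the 2.96-fold of the sterol synthesis sum. The sterol sum divided by the epithelium sum was 0.162, 0.176 and 0.110 in estrus replicates 1 to 3, against 0.157, 0.167, 0.132 and 0.141 in diestrus replicates 1 to 4. On this scale the diestrus range lay inside the estrus range. Among the most abundant of these markers, the keratins Krt7 and Krt19 rose by 2.52 and 2.23, while Krt18 averaged 313.5 FPKM in estrus and 264.0 FPKM in diestrus and did not pass (adjusted p = 0.430). In whole tissue, more cells of a type and more RNA per cell cannot be told apart, and the part of the epithelium in the sterol result was not tested. The 8 endothelium markers all fell and summed to 136.1 to 173.7 FPKM in estrus and 234.8 to 536.9 FPKM in diestrus. Of 10 stroma markers 4 fell and none rose (3934 to 5190 FPKM in estrus, 3124 to 5859 FPKM in diestrus), and of 8 smooth muscle markers 1 rose and 1 fell (2964 to 5287 FPKM in estrus, 2644 to 6940 FPKM in diestrus). The 10 adipocyte markers, another lipid-making cell, summed to 16.1 to 82.5 FPKM in estrus and 59.0 to 254 FPKM in diestrus, and none of the 9 tested passed.

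**Figure D3:**
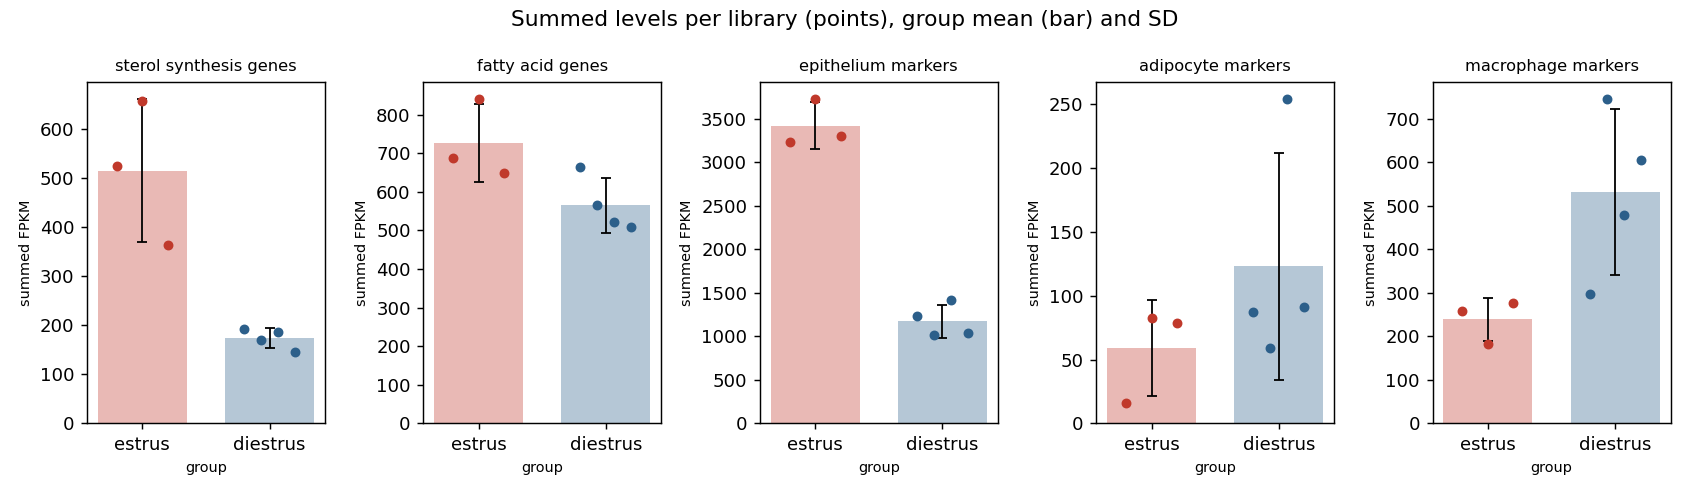
Summed FPKM per library (points) with group means (bars) and SD (lines) for 17 sterol synthesis genes, 9 fatty acid genes and the epithelium, adipocyte and macrophage markers, with estrus on the left of each panel. Sterol and epithelium sums differ by similar factors of 2.96 and 2.91, while the adipocyte and macrophage sums have the lower mean in estrus.

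Promoter sequence is shown for 3 genes that rose together and 1 that fell, because Srebp factors bind sterol response elements and act there with NF-Y, the factor of the CCAAT box. Each line gives the 160 bases before the RefSeq start, 5′ to 3′ along the gene (GRCm38.p6), and capitals mark a sterol response element core (TCACNCCAC) or a CCAAT box on either strand. The stretches were picked after a look at several members' windows, as ones that hold no GENCODE exon. They are not typical of the listed genes. In windows of 250 bases before to 50 after a start, Mvk held 5 CCAAT boxes and Hmgcs1 and Nsdhl 4 each. No window of another listed gene held more than 3, and Acat2 and Elovl6 rose with none. Among the 26 listed genes with a window, Hmgcs1 alone held the sterol response element core. Fdps, Fdft1, Sqle, Stard4, Abcg1, Scd1, Scd2 and Fads1 had no window and were not searched.
Hmgcs1, chr13:119690191-119690350, plus strand: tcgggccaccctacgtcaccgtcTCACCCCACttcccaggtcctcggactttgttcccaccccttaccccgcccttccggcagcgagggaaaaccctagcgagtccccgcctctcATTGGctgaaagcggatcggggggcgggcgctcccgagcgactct
Mvk, chr5:114444109-114444268, plus strand: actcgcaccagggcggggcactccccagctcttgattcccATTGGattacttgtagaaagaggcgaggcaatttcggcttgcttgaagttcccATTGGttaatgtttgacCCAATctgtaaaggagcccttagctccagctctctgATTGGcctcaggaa
Nsdhl, chrX:72918361-72918520, plus strand: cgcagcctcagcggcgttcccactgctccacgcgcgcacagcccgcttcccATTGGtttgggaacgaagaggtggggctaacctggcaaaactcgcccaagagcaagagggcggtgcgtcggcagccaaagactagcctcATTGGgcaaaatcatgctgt
Abca1, chr4:53159896-53160055, minus strand: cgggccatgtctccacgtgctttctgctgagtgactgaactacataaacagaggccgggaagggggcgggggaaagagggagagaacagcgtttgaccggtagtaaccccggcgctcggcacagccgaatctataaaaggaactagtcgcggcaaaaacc
Hmgcs1 holds the sterol response element core from position -137 and a CCAAT box from -45, where -1 is the last base before the start. Mvk holds 4 CCAAT boxes, Nsdhl 2 and the printed stretch of Abca1 none.

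Over whole windows of 250 bases before to 50 after a start, 26 of the 34 genes had an entry in the table used. A CCAAT box was found in 13 of 14 sterol synthesis genes (92.9%), against 42.6% of 10023 tested genes with a window. Over all 27025 genes with a window the share was 41.1%, and over all 32851 single windows 37.4%. Gene counts take a match in any window of a gene, so the shares of all windows given here have a different unit. Of the 11 sterol synthesis genes that rose, 10 held the CCAAT box (90.9%), and so did Pmvk, Ebp and Dhcr7, which did not pass. It was also in 4 of 5 Srebp regulation genes and 3 of 6 fatty acid genes. The GC box GGGCGG was also found in 13 of the 14, against 68.4% of those tested genes and 35.7% of all windows. The sterol response element core was found in 1 of the 14, against 1.33% of those tested genes and 1.24% of all windows, the E-box CACGTG in 2 of the 14, against 11.6% and 7.15%, and neither the palindromic estrogen response element (0.00998% and 0.070%) nor the Lxr element of direct repeats (0% and 0.0152%) in any. All motifs were searched as fixed strings on both strands and may overlap, so variant forms were not counted. At such low background shares, absence of the estrogen and Lxr elements from 14 genes carries no information. Such matches describe the letters of a short window only.

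Of the 5 regulators 3 rose and 2 did not pass, beside a background of 17.2% of tested genes called higher. Srebf2, the master activator of the sterol route (GRCm38 chromosome 15, 82147181 to 82205379, protein-coding), stood at 67.6, 84.7 and 61.0 FPKM in estrus, against 31.9, 25.7, 25.8 and 22.2 FPKM in diestrus. It rose by 1.39 (SE 0.16, adjusted p = 0.00200). Every estrus library lay above every diestrus library, as for 21.9% of tested genes. Srebf1 stood at 34.0, 40.8 and 30.2 FPKM in estrus and at 25.5, 22.8, 21.6 and 20.2 FPKM in diestrus. The groups were apart but close, and its rise of 0.61 (SE 0.14, adjusted p = 0.0164) did not pass without estrus replicate 2 (0.0823). Srebf2 over Srebf1 was 1.99 to 2.08 in estrus and 1.10 to 1.25 in diestrus, a ratio chosen after the values were seen. FPKM does not separate the Srebp1a and Srebp1c transcripts of Srebf1.

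Insig1, the retention factor that is itself a Srebp target, stood at 21.95, 34.4 and 21.2 FPKM in estrus, against 9.37, 7.12, 7.01 and 9.43 FPKM in diestrus. The groups were well apart and it rose by 1.52 (SE 0.20, adjusted p = 0.00279). Its paralog Insig2, which is not driven by Srebp in the same way, stood at 14.6, 17.6 and 18.0 FPKM in estrus and at 15.7, 16.2, 21.3 and 22.1 FPKM in diestrus. The groups overlapped and it did not pass (log2 -0.15, SE 0.16, adjusted p = 0.498). Insig1 over Insig2 was thus 1.18 to 1.95 in estrus and 0.330 to 0.597 in diestrus. Scap, the escort protein, averaged 28.1 ± 2.04 FPKM in estrus and 23.7 ± 3.15 FPKM in diestrus and did not pass (adjusted p = 0.193).

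Sterol movers went in opposite directions. Stard4, which carries cholesterol through the cytosol and is a Srebp target (GRCm38 chromosome 18, 33199355 to 33213862, protein-coding), stood at 29.1, 37.5 and 25.1 FPKM in estrus, against 12.3, 5.66, 11.7 and 8.31 FPKM in diestrus. It rose by 1.62 (SE 0.26, adjusted p = 0.00524) with no overlap. Abca1, the exporter that loads apolipoprotein A1 (GRCm38 chromosome 4, 53030787 to 53159895, protein-coding), stood at 7.37, 8.57 and 16.4 FPKM in estrus, against 17.1, 30.5, 43.4 and 50.4 FPKM in diestrus. Abcg1, which exports sterol to HDL, stood at 2.54, 1.79 and 2.96 FPKM in estrus, against 4.16, 10.3, 7.85 and 11.7 FPKM in diestrus. For both exporters all estrus libraries lay below all diestrus libraries, as they did for 18.7% of tested genes, and diestrus replicate 1 lay nearest to estrus. Abca1 fell by 1.60 (SE 0.40, adjusted p = 0.0221) and Abcg1 fell by 1.41 (SE 0.31, adjusted p = 0.0151), beside 14% of tested genes called lower.

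The exporter calls rested on few libraries. Abca1 had an adjusted p of 0.0755, 0.0898, 0.0521 and 0.0523 without estrus replicate 1, estrus replicate 2, diestrus replicate 3 and diestrus replicate 4, and Abcg1 of 0.0720 without estrus replicate 2. Macrophages are rich in both exporters, and of 8 macrophage markers 5 fell and none rose, beside 14% of tested genes called lower. Their log2 fold changes ran from -1.45 to 0.38, and 1 of the 8 was positive. The macrophage marker sum was 258.7, 183.6 and 276.9 FPKM in estrus and 298.2, 746.8, 478.2 and 605.9 FPKM in diestrus. Its part in the exporter result was not tested. The most abundant of these markers, Lyz2, C1qa and C1qb, differed by -1.45, -0.92 and -1.02 (log2), and their adjusted p was 0.0196, 0.0512 and 0.0486 in that order. The call of Lyz2 was lost without estrus replicate 2 (0.0864) or diestrus replicate 4 (0.0509) and stood at 0.05 after rounding without estrus replicate 3, and that of C1qb passed without diestrus replicate 1 (0.00480) but not without any other library (0.0685 to 0.159), with a pseudocount of 5, either other filter or no trend (0.0509 to 0.0797). Hmgcs1 over Abca1, a ratio of an early sterol gene to the exporter chosen after the values were seen, was 11.0, 12.5 and 3.04 in estrus replicates 1 to 3 and 1.55, 0.763, 0.483 and 0.350 in diestrus replicates 1 to 4.

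**Figure D4:**
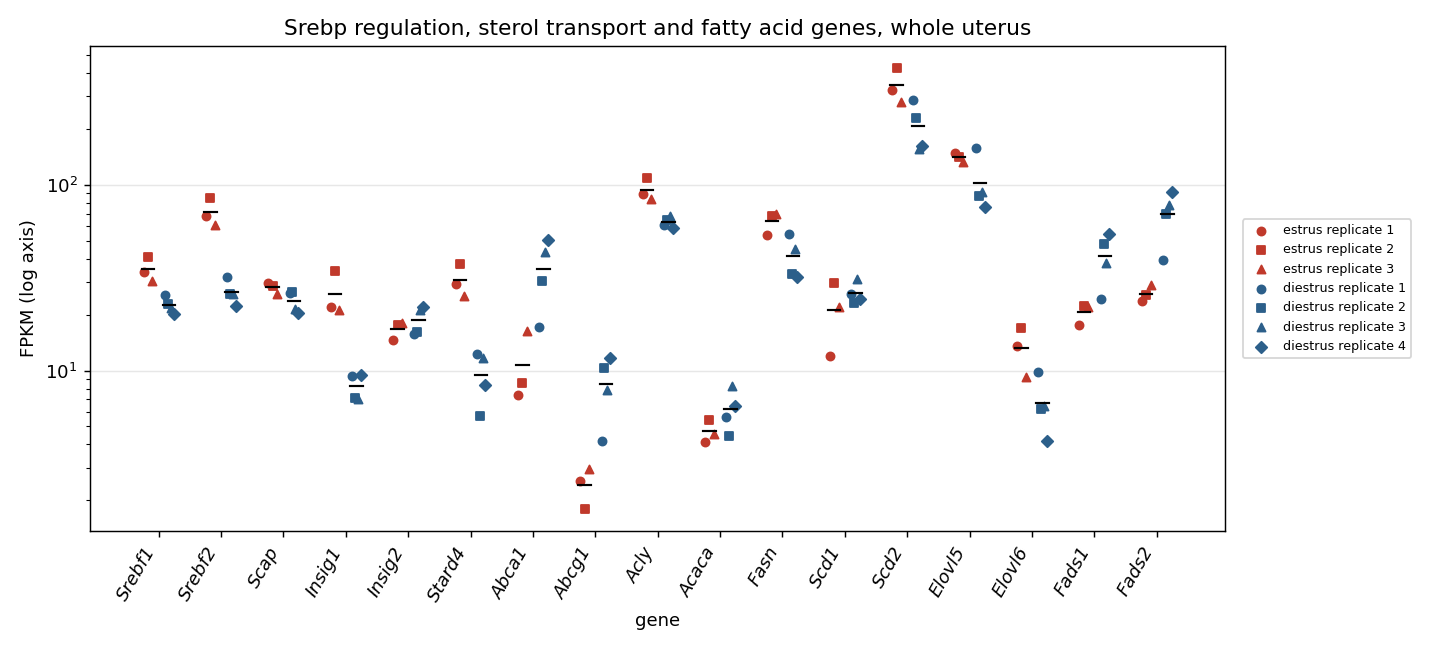
FPKM on a log axis of the 5 Srebp regulation, 3 sterol transport and 9 fatty acid genes; red symbols are estrus and blue symbols diestrus libraries, with a shape for each replicate and black bars at the group means. Srebf2, Insig1 and Stard4 lie higher in estrus without overlap, Abca1, Abcg1, Fads1 and Fads2 lie lower, and most of the other fatty acid genes overlap.

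Of 9 fatty acid genes, 2 rose, 2 fell and 5 did not pass, counts near the background of 17.2% of tested genes called higher and 14% lower. They had a median log2 fold change of 0.50 and a range from -1.34 to 0.90. Their summed level was 650.1 to 841.7 FPKM in estrus and 509.0 to 665.1 FPKM in diestrus, a ratio of means of 1.29, so the groups overlapped. Divided by the epithelium marker sum it was 0.197 to 0.226 in estrus and 0.368 to 0.556 in diestrus.

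Acly, Acaca and Fasn make palmitate from citrate. Acly, which splits citrate into cytosolic acetyl-CoA, stood at 89.2, 109 and 83.5 FPKM in estrus, against 61.1, 65.0, 68.2 and 58.7 FPKM in diestrus. It rose by 0.55 (SE 0.13, adjusted p = 0.0175) with no overlap, but its adjusted p was 0.0879 without estrus replicate 2, 0.0505 without diestrus replicate 4 and 0.107 with quantile normalization. Acaca, acetyl-CoA carboxylase 1, averaged 4.71 ± 0.66 FPKM in estrus and 6.18 ± 1.61 FPKM in diestrus and did not pass (adjusted p = 0.257). A processed pseudogene, Gm5182, matches 64.3% of its transcript at 99.2% identity, so its level is uncertain. Fasn, fatty acid synthase, averaged 63.7 ± 8.88 FPKM in estrus and 41.2 ± 10.8 FPKM in diestrus. Estrus replicate 1, at 53.5 FPKM, lay just under diestrus replicate 1, at 54.6 FPKM, and Fasn narrowly missed (log2 0.64, SE 0.21, adjusted p = 0.0526, or 0.0159 without diestrus replicate 1).

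The desaturases were uneven. Scd2, the main stearoyl-CoA desaturase outside liver and fat and the most abundant of the 34 genes, stood at 326, 425 and 278 FPKM in estrus and at 288, 229, 156 and 162 FPKM in diestrus. Only diestrus replicate 1 reached the estrus range, and Scd2 did not pass (log2 0.74, SE 0.26, adjusted p = 0.0638, or 0.0216 without that library). Scd1, the isoform of liver and fat, stood at 12.0, 29.7 and 21.9 FPKM in estrus and at 25.9, 23.2, 31.1 and 24.2 FPKM in diestrus, with wide overlap (adjusted p = 0.331). The pair share 623 bases at 95.5% identity, 11.4% of the Scd2 transcript. Fads1 and Fads2, the delta-5 and delta-6 desaturases of polyunsaturated fatty acids, which lie close together on chromosome 19, were both lower in estrus. Fads2 (GRCm38 10062765 to 10101746, protein-coding) stood at 23.5, 25.4 and 28.7 FPKM in estrus, against 39.3, 70.0, 77.8 and 91.8 FPKM in diestrus. Fads1 stood at 17.6, 22.3 and 22 FPKM in estrus, against 24.4, 48.1, 37.9 and 54.1 FPKM in diestrus. Neither gene overlapped between the groups, and in both diestrus replicate 1 lay nearest to estrus.

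Fads2 fell by 1.34 (SE 0.27, adjusted p = 0.0109), a call that was lost without estrus replicate 2 (0.0510). Fads1 fell by 0.91 (SE 0.26, adjusted p = 0.0351), and passed without diestrus replicate 1 (0.00446) but not without any other library (0.0655 to 0.108) or with no filter (0.0582). Of the elongases, Elovl6 passed and Elovl5 did not. Elovl6, which extends palmitate to stearate, averaged 13.2 ± 3.85 FPKM in estrus and 6.67 ± 2.33 FPKM in diestrus. It rose by 0.90 (SE 0.28, adjusted p = 0.0435) although estrus replicate 3, at 9.22 FPKM, lay below diestrus replicate 1, at 9.83 FPKM. Leaving out any library except estrus replicate 3 and diestrus replicate 1 ended this call (0.0832 to 0.163), as did no filter (0.0735) and quantile normalization (0.0586). Elovl5, an elongase of polyunsaturated fatty acids, stood at 149, 140.3 and 132 FPKM in estrus and at 157, 87.4, 91.1 and 75.5 FPKM in diestrus. Diestrus replicate 1 was the highest of all 7 libraries, and Elovl5 did not pass with it (adjusted p = 0.144) but did so without it (0.00629).

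Further genes of the same pathways were read from lists that were also chosen with earlier results known. The background for each count is again 17.2% of tested genes called higher and 14% lower. Of 12 tested other genes of sterol and isoprenoid synthesis, 6 rose and none fell, with a median log2 fold change of 0.50. Sc5d, the C5 desaturase, rose by 1.39 (SE 0.15, adjusted p = 0.00150), at 19.9 to 27.4 FPKM in estrus and 7.18 to 9.50 FPKM in diestrus. Nus1, a subunit of the enzyme that makes dolichol chains, rose by 1.13 (SE 0.18, adjusted p = 0.00479), at 48.6 to 52.9 FPKM in estrus and 17.3 to 30.3 FPKM in diestrus. Of 13 tested other Srebp and Lxr regulators, 2 rose and 3 fell, close to that background. Mbtps2, the site-2 protease that releases Srebp, rose by 0.58, whereas Mbtps1, the site-1 protease, fell by 0.46. Nr1h3, which encodes Lxr alpha, fell by 1.52 (SE 0.41, adjusted p = 0.0283), at 3.29 to 4.69 FPKM in estrus and 6.90 to 25.1 FPKM in diestrus, and Mylip, an Lxr target that encodes a ubiquitin ligase, fell by 0.92. All 4 calls were lost without estrus replicate 2 (adjusted p = 0.0792 for Mbtps2, 0.10 for Mbtps1, 0.106 for Nr1h3 and 0.102 for Mylip). Those of Mbtps1, Nr1h3 and Mylip were also lost without estrus replicate 1 or diestrus replicate 3, those of Mbtps1 and Nr1h3 without estrus replicate 3, those of Mbtps1 and Mylip without diestrus replicate 4, and that of Mylip without diestrus replicate 2 (0.0508 to 0.0843). With no filter the adjusted p of Nr1h3 was 0.0529.

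Of 17 tested genes of sterol uptake, storage and transport, 3 rose and 5 fell, with a median of -0.40, against 17.2% of all tested genes higher and 14% lower. The share that rose is thus that of the background. Apoe, an Lxr target and sterol-carrying apolipoprotein abundant in macrophages, stood at 358, 217 and 169 FPKM in estrus, against 673, 1965, 1319 and 1749 FPKM in diestrus. It fell by 2.48 (SE 0.42, adjusted p = 0.00595), again with diestrus replicate 1 nearest to estrus. Soat1, which esterifies cholesterol for storage, fell by 1.27 (SE 0.18, adjusted p = 0.00330), at 7.50 to 9.62 FPKM in estrus and 17.1 to 26.2 FPKM in diestrus with no overlap. Stard3, an endosomal sterol carrier, rose by 0.66. Of 27 tested other genes of fatty acid synthesis and lipid assembly, 6 rose and 1 fell, with a median of 0.31, and the share called in either direction was below the 31.1% of all tested genes. Acsl3, a long-chain acyl-CoA synthetase of lipid droplets, rose by 1.72 (SE 0.21, adjusted p = 0.00237), at 28.3 to 53.0 FPKM in estrus and 9.33 to 11.5 FPKM in diestrus. Hsd17b12, the ketoreductase of fatty acid elongation, rose by 1.35, malic enzyme Me1, a source of NADPH, by 1.28, and Acss2, the cytosolic acetyl-CoA synthetase, by 0.91. The adjusted p of Acss2 was 0.0127, and 0.0623 without estrus replicate 2.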

How the data were processed

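Whole-uterus RNA had been purified on RNeasy columns with DNase and made into TruSeq libraries, per the labels' protocols. The authors deposited FPKM per gene and library. The submitters' processing notes name TopHat2 2.0.4 and mm10 with no role stated, while for the FPKM program, its annotation and its use of strand the sources used here give nothing. FPKM divides by mapped fragments, so very abundant transcripts can lower all other values: the 10 highest rows held 33.7% to 38.2% of the FPKM sum in estrus and 12.1% to 34.2% in diestrus. All 7 columns were matched to samples by description, and groups came from titles.

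Genes that reached 1 FPKM in 3 or more libraries were tested on log2(FPKM + 1) with limma 3.58.1 (R 4.3.3), a design of 2 groups, trended moderation and two-sided Benjamini-Hochberg adjusted p-values (threshold 0.05). The fit was tested on simulated data. Alternatives were other pseudocounts (0.1 and 5), filters, scalings, moderation, a replicate block, weights per library and the omission of each library.

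Members and lists were chosen with earlier results of these data known. All listed genes are named; of other pathway lists, up to 4 with the smallest p among those that passed, and of marker lists, up to 3 with the highest mean. Some genes that this rule picks are not reported here. Positions are from GENCODE vM21 (GRCm38, or mm10). Near-identical copies are blastn 2.17.0 matches of at least 95% identity over at least 200 bases between GENCODE transcripts. Promoter windows are from RefSeq (GRCm38.p6).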

Additional observations from a re-analysis of the deposited data

How the results depend on the processing

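Of 24 genes called, 14 passed in all of 17 alternative settings that gave a value, and none of the 24 changed sign. They are 11 of the sterol synthesis genes with Srebf2, Insig1 and Stard4, and the other 10 missed in at least 1 setting. The same settings were applied, after the data were seen, to 24 other genes that the naming rule picks: of 22 called, 13 passed in all and 9 missed in at least 1, with 0 changes of sign. The number of listed genes called higher, 20, lay between 14 and 23 with any 1 library omitted, and the number called lower, 4, from 0 to 4, with 0 without estrus replicate 2. Over all genes the 4336 calls ran from 1433 (without estrus replicate 2) to 5311 (without diestrus replicate 1), and were 8113 with library weights. These weights used a gene-by-gene estimator, chosen after the default one had not converged. Scd1 changed sign only with library weights, to 0.007. Replicate numbers are shared by the titles of both groups. Deviations of same-numbered libraries correlated at 0.198, 0.024 and 0.169, all inside the range of -0.326 to 0.267 of differently numbered libraries. These values do not settle whether the numbers pair libraries, and the main fit did not take them to do so. With the replicate block, which leaves diestrus replicate 4 without a partner and so without influence, 2281 genes were called, with 16 of the listed genes higher and 3 lower. The adjusted p under this block was over 0.05 for Acat2 (0.0524), Srebf1 (0.0628), Abcg1 (0.0502), Acly (0.0773), Elovl6 (0.0814), Mbtps2 (0.0766), Mbtps1 (0.108), Acss2 (0.0594), Lyz2 (0.0862), C1qb (0.0991) and Inha (0.106), and it ended no other call among the listed genes and these 24. Depth in reads is unknown, so no counting error can be given for single values.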

Other observations

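Scd1 and the adipocyte marker sum were lowest and highest in the same libraries, a pattern noticed after the values were seen. This does not hold for every single marker. Estrus replicate 1 had the lowest Scd1, 12.0 FPKM, and an adipocyte marker sum of 16.1 FPKM, the lowest of the 7 libraries. Diestrus replicate 3 had the highest Scd1, 31.1 FPKM, and the highest adipocyte marker sum, 254 FPKM. Adipoq, the adiponectin gene of fat cells, stood at 0.30, 5.28 and 5.67 FPKM in estrus replicates 1 to 3, against 7.45, 4.12, 18.3 and 4.31 FPKM in diestrus replicates 1 to 4. The part of attached fat in the Scd1 level was not tested.

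Thrsp, a lipogenic gene also chosen after its values were seen, stood at 109 FPKM in diestrus replicate 1 and at 28.1, 18.1 and 7.31 FPKM in diestrus replicates 2 to 4, while estrus libraries held 13.8 to 21.0 FPKM.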
